A study of Ovis aries with 7 samples.

Results

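The NF-kB loop was followed through 5 genes, the inhibitor NFKBIA and the cytokines IL1B, TNF, IL6 and IL8, in the hypothalamus of fetal sheep. Every non-control probe whose gene name or description in the array files gave one of these genes was taken, which found 6 probes among 15008, for 5 genes among 983 named ones. NFKBIA, IL1B, IL6 and TNF had 1 probe each and IL8, now named CXCL8, had 2. The hypoxia group was 3 late-gestation fetuses with implanted catheters whose ewes breathed gas of low oxygen tension for 30 min, followed by 30 min of recovery on normal gas. The control group was 4 catheterized fetuses of the same age kept at normal oxygen over both periods. RNA was taken from whole hypothalamus 60 min after the onset of hypoxia and measured on 1-colour Agilent arrays, with 1 fetus per array.

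NF-kB is a family of transcription factors that inhibitor proteins hold in the cytoplasm of resting cells. The cytokines IL-1β and TNF bind their receptors and switch on a kinase complex that marks the inhibitor IκBα, encoded by NFKBIA, for destruction. Freed NF-kB then raises transcription of cytokines, chemokines and adhesion molecules and of NFKBIA itself, which closes a negative feedback loop. In the brain these cytokines come mainly from microglia, perivascular cells and endothelium, and in the hypothalamus they are known for driving fever and the stress axis.

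Each gene was read through the 60-base probes below, and their sequences are shown because every value that follows rests on them. The NFKBIA probe, which has no stop codon in any of its 3 forward frames, is given whole, and bases 1 to 30 are given for IL1B, TNF and IL6. The IL8 probes share 20 bases, shown in capitals with the 5 bases before them in the main probe and the 5 bases after them in the second probe, so they are not independent readings of the transcript.
NFKBIA: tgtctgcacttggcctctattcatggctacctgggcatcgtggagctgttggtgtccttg
IL1B: cgttttagaggtggccaggatataactgac
TNF: tgcctgtaaccgccctactggtcagtggcg
IL6: ggagccaaatcatttcttgaaatgtgtagg
IL8 main probe: ctagtCTTGCCCTTATTATGCAATG
IL8 second probe: CTTGCCCTTATTATGCAATGatgtg

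The share of spots well above background was 83.1% to 84.8% in hypoxia and 77.2% to 86.4% in control. Slide 1 carried the hypoxia arrays, slide 2 carried control replicates 1 and 2, and slide 3 carried the other controls, each with a scan of its own. Slide and group therefore cannot be told apart in any comparison here. Of the 15008 probes, 12711 were tested, and 2 of them (0.0157%) differed between hypoxia and control at an adjusted p under 0.05. Levels are given as the processed signal in percent of the 75th percentile of the same array, so a level compares arrays for 1 probe and not probes with each other. The tissue was whole hypothalamus, so fewer cells of a type and less RNA per cell cannot be told apart.

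NFKBIA was the 1 gene of the 5 whose groups did not overlap, with every hypoxia fetus above every control. TNF and IL6 overlapped the controls, IL1B was high in 1 hypoxia fetus, and IL8 was high in 1 other hypoxia fetus. Of the 6 probes, 0 passed an adjusted p under 0.05 in limma, beside 0.0157% of all tested probes. At an unadjusted p under 0.05 there was 1 of 6, NFKBIA, beside 15.7% of all tested probes in either direction and 8.75% higher in hypoxia, so this count does not set the 5 genes apart. The groups did not overlap for 1 of 6 probes, beside 16.2% of all tested probes. The difference was above 0 for 5 of 6 probes, beside 54.7% of all.

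NFKBIA encodes IκBα, both an inhibitor and a target of NF-kB. Its level was 344%, 679% and 192% of the 75th percentile on hypoxia replicates 1, 2 and 3, against 129%, 159%, 135% and 118% on control replicates 1, 2, 3 and 4. All 3 hypoxia fetuses lay above all 4 controls, and hypoxia replicate 2 stood highest. The log2 level averaged 1.83 ± 0.91 in hypoxia (SD, n = 3) and 0.43 ± 0.18 in control (SD, n = 4). The log2 difference was 1.40 (SE 0.38; limma, adjusted p = 0.197), which is 2.64-fold with a 95% interval of 1.43 to 4.88. The unadjusted limma p was 0.00687, and the probe ranked 443 of 12711 by p and 91 by size of the rise. The fetuses differed in how far they stood above the control mean, 2.56-fold for replicate 1, 5.05-fold for replicate 2 and 1.43-fold for replicate 3. The spread within hypoxia, a log2 range of 1.82, was larger than the spread within control, a log2 range of 0.43. Without hypoxia replicate 2 the log2 difference was 0.93, and without hypoxia replicate 3 it was 1.85.

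**Figure D1:**
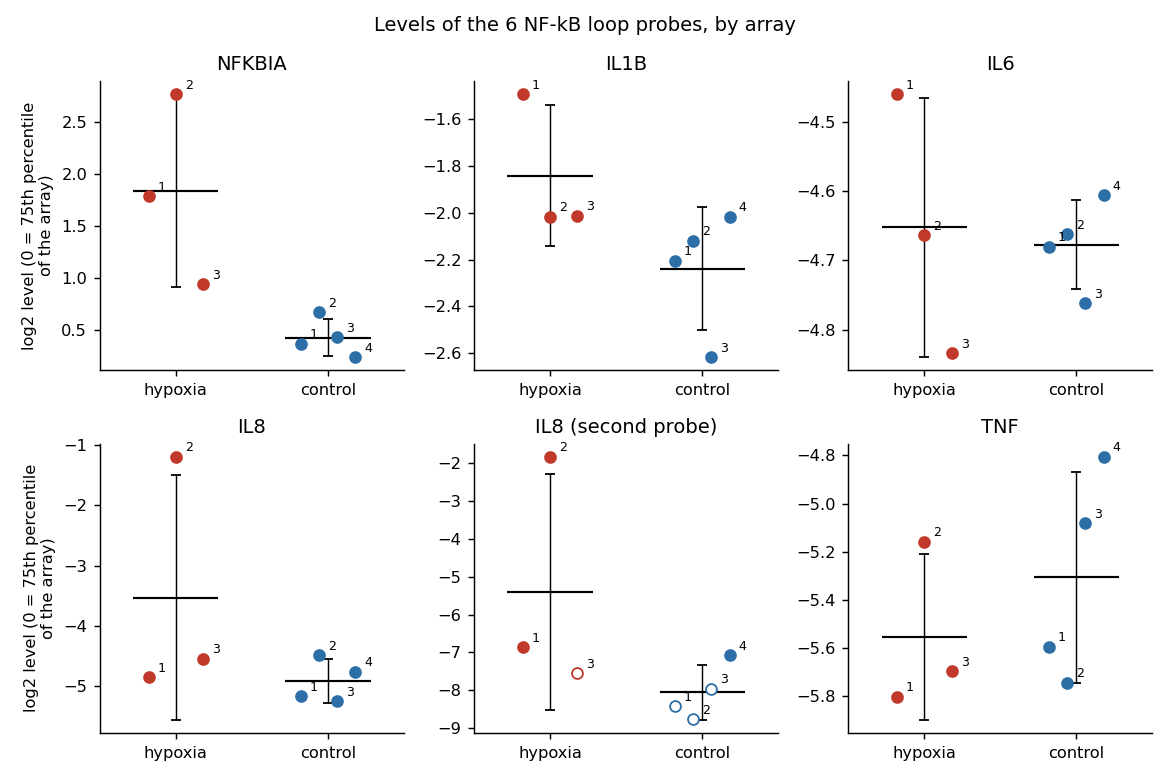
Log2 level of each of the 6 probes (y axis, 0 is the 75th percentile of the array; the axis range differs between panels) in hypoxia (red, n = 3) and control (blue, n = 4). Each point is 1 array with its replicate number, open where not well above background, the bar is the group mean and the error bar 1 SD each way. NFKBIA is the panel in which all hypoxia points lie above all control points, and hypoxia replicate 2 stands alone in both IL8 panels.

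IL1B encodes IL-1β, one of the cytokines that switch NF-kB on and one of its products. Its level was 35.5%, 24.7% and 24.8% of the 75th percentile on hypoxia replicates 1, 2 and 3, against 21.7%, 23.0%, 16.3% and 24.7% on control replicates 1, 2, 3 and 4. Hypoxia replicate 1 was alone at the top, and hypoxia replicates 2 and 3 were level with control replicate 4. The probe was spotted 5 times per array, and these spots give the technical error within an array, not the spread between fetuses. On hypoxia replicate 1 the 5 spots ran from 807 to 1010 in processed signal before scaling, and the spots of the other arrays all lay between 419 and 618. The log2 difference was 0.40 (SE 0.19; limma, adjusted p = 0.359), with a 95% interval of -0.05 to 0.85. Without hypoxia replicate 1 it was 0.22. The interval held 0, and the fetus highest for IL1B was not the one in which NFKBIA and IL8 were highest.

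TNF encodes tumour necrosis factor, the other cytokine of the set that activates NF-kB. Its level was 1.79%, 2.80% and 1.93% of the 75th percentile on hypoxia replicates 1, 2 and 3, against 2.07%, 1.87%, 2.95% and 3.57% on control replicates 1, 2, 3 and 4. Hypoxia replicate 2 was the highest of its group but lay below control replicates 3 and 4. The log2 difference was -0.25 (SE 0.27; limma, adjusted p = 0.672), with a 95% interval of -0.86 to 0.37. The controls themselves split by slide for this probe, with slide 3 above slide 2 by 0.72 on the log2 scale (SE 0.17; limma, adjusted p = 0.394). Among all probes, 7.99% differed between the control slides at an unadjusted p under 0.05, and TNF and the second IL8 probe were among them. For that IL8 probe slide 3 lay above slide 2 by 1.07 (SE 0.35; limma, adjusted p = 0.566), but both slide 2 values were surrogates set by the scanner software. Against control replicates 1 and 2 alone the hypoxia difference for TNF was 0.12, and against control replicates 3 and 4 alone it was -0.61, so its sign depended on the control slide.

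IL6 encodes interleukin 6, a cytokine that NF-kB induces and that signals through its own receptor. Its level was 4.54%, 3.95% and 3.51% of the 75th percentile on hypoxia replicates 1, 2 and 3, against 3.90%, 3.95%, 3.69% and 4.11% on control replicates 1, 2, 3 and 4. The highest and the lowest of the 7 arrays were both hypoxia arrays. The log2 difference was 0.02 (SE 0.12; limma, adjusted p = 0.937). Its 95% interval ran from -0.25 to 0.30, or 0.843-fold to 1.23-fold. This was the narrowest interval of the 6 probes.

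IL8 encodes the chemokine CXCL8, which NF-kB induces and which draws neutrophils to inflamed vessels. The main probe stood at 3.47%, 43.6% and 4.30% of the 75th percentile on hypoxia replicates 1, 2 and 3, against 2.80%, 4.48%, 2.63% and 3.70% on control replicates 1, 2, 3 and 4. Hypoxia replicate 2 was 9.73-fold above the next array, control replicate 2, and the other hypoxia fetuses lay within the control range. The second probe stood at 0.864%, 27.9% and 0.535% on hypoxia replicates 1, 2 and 3, against 0.294%, 0.232%, 0.404% and 0.741% on control replicates 1, 2, 3 and 4. It was well above background on hypoxia replicates 1 and 2 and on control replicate 4, and its values on control replicates 1 and 2 were surrogates set by the scanner software. Its highest array was the same fetus, 32.3-fold above hypoxia replicate 1, which on this probe also lay above all controls.

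The log2 difference of IL8 was 1.38 (SE 0.82; limma, adjusted p = 0.436) with the main probe and 2.63 (SE 1.28; limma, adjusted p = 0.358) with the second. The 95% intervals, -0.53 to 3.30 and -0.35 to 5.62, both held 0. Without hypoxia replicate 2 the differences were 0.22 and 0.85. With 4 of its 7 arrays not well above background, the second probe gives a direction more than a size, and under normexp background correction its difference was 1.02. The IL8 difference between the groups was thus set mainly by 1 of 3 fetuses, measured by overlapping probes.

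**Figure D2:**
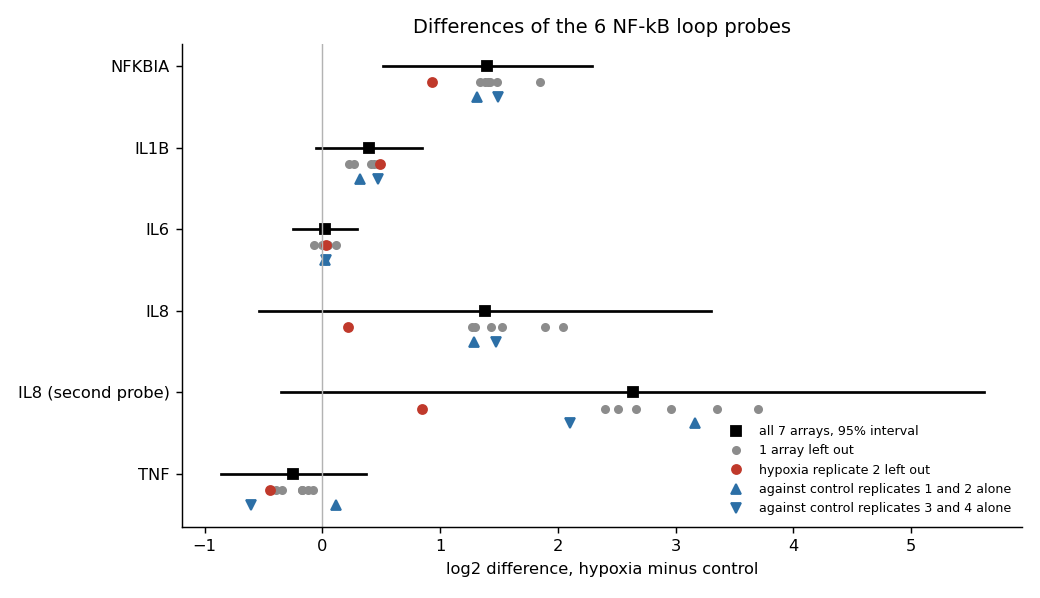
Log2 difference, hypoxia minus control, of the 6 probes (x axis, one probe per row). Squares and lines are the fit over all 7 arrays with its 95% interval, circles the fits with 1 array left out (red without hypoxia replicate 2), and triangles the fits against 1 control slide. The NFKBIA interval alone lies above 0, the IL8 differences drop to 0.22 and 0.85 without hypoxia replicate 2, and TNF changes sign with the control slide.

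How far hypoxia replicate 2 stood out was measured for every probe by its gap to the next highest array. Among 12685 probes with values on all arrays, the second IL8 probe had the largest such gap on this array, 5.02 on the log2 scale, and the main IL8 probe ranked 3 with 3.28. NFKBIA ranked 29 with 0.98. In all, 26 probes were highest on hypoxia replicate 2 by at least 1 on the log2 scale, against 19 and 15 on hypoxia replicates 1 and 3 and 8 to 34 on the control arrays. By at least 2 on the log2 scale, 9 probes were highest on this array, the most of any array, against 3 and 1 on hypoxia replicates 1 and 3 and 1 to 7 on the control arrays.

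Other NF-kB targets were among the named probes at the top of that order. Many probes there had no gene name, among them the one at rank 2 with a gap of 3.59. As 1593 of 15008 probes had a name, no share of targets was taken. ICAM1, the adhesion molecule on endothelium to which leukocytes bind, ranked 4 with a gap of 2.74. IRF1, a transcription factor of the interferon response, ranked 9 with 2.08. In log2 levels, ICAM1 stood at -5.73, -1.86 and -5.46 on hypoxia replicates 1, 2 and 3, against -5.24, -5.54, -5.00 and -4.60 on control replicates 1, 2, 3 and 4. IRF1 stood at -5.01, -2.23 and -4.48 on hypoxia replicates 1, 2 and 3, against -4.43, -5.00, -4.58 and -4.30 on control replicates 1, 2, 3 and 4. Both were high in the one fetus and just below the control range in hypoxia replicate 1. SELP, the P-selectin on which leukocytes roll, was singled out after its values were seen, and its 2 probes differed. The second probe ranked 6 with a gap of 2.54, and the main probe ranked 62 with 0.69. The main probe stood at log2 levels of -9.32, -4.39 and -7.26 on hypoxia replicates 1, 2 and 3, against -5.73, -5.08, -5.85 and -6.63 on control replicates 1, 2, 3 and 4. It was well above background on hypoxia replicate 2 and on all 4 controls, and the second probe on hypoxia replicate 2 and on 3 of 4 controls. The log2 difference of SELP was -1.17 (SE 1.03; limma, adjusted p = 0.601) with the main probe and -0.48 (SE 1.27; limma, adjusted p = 0.880) with the second. Without hypoxia replicate 2 these were -2.47 and -2.30. The log2 differences without this fetus were -0.50 for ICAM1 and -0.17 for IRF1, against 0.74 and 0.67 with it, so 1 library decided both signs.

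Levels of cell type markers were set beside this fetus. Each sum adds levels of different probes, so it mainly follows its brightest marker. These were PECAM1 for endothelium, FCER1G for microglia and macrophages and HBB for red cells. The summed level of the 5 measured endothelial markers of 10, in percent of the 75th percentile, was 110 on hypoxia replicate 2 and 72.7 to 110 in hypoxia, against 96.3 to 138 in control. That of 4 measured microglia and macrophage markers of 17 was 98.6 on hypoxia replicate 2 and 94.7 to 110 in hypoxia, against 84.7 to 134 in control. That of 3 measured erythroid markers of 8 was 1747 on hypoxia replicate 2 and 1289 to 1747 in hypoxia, against 414 to 3700 in control. On hypoxia replicate 2 each of these 3 sums lay within the control range, the erythroid sum only through control replicate 4, at 3700. The other controls had erythroid sums of 414 to 779, below every hypoxia fetus. Separate markers did not all follow their sums on hypoxia replicate 2. KDR, TEK and TIE1 lay below all controls there, and FLT1 lay above all controls. ITGAM and CD14 lay narrowly above all controls and LYZ below all controls, while PECAM1 and FCER1G lay within the control range. Of 10 neutrophil and monocyte markers, LTF was the 1 measured, at 1.45 to 2.67 in hypoxia and 3.53 to 6.99 in control.

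**Figure D3:**
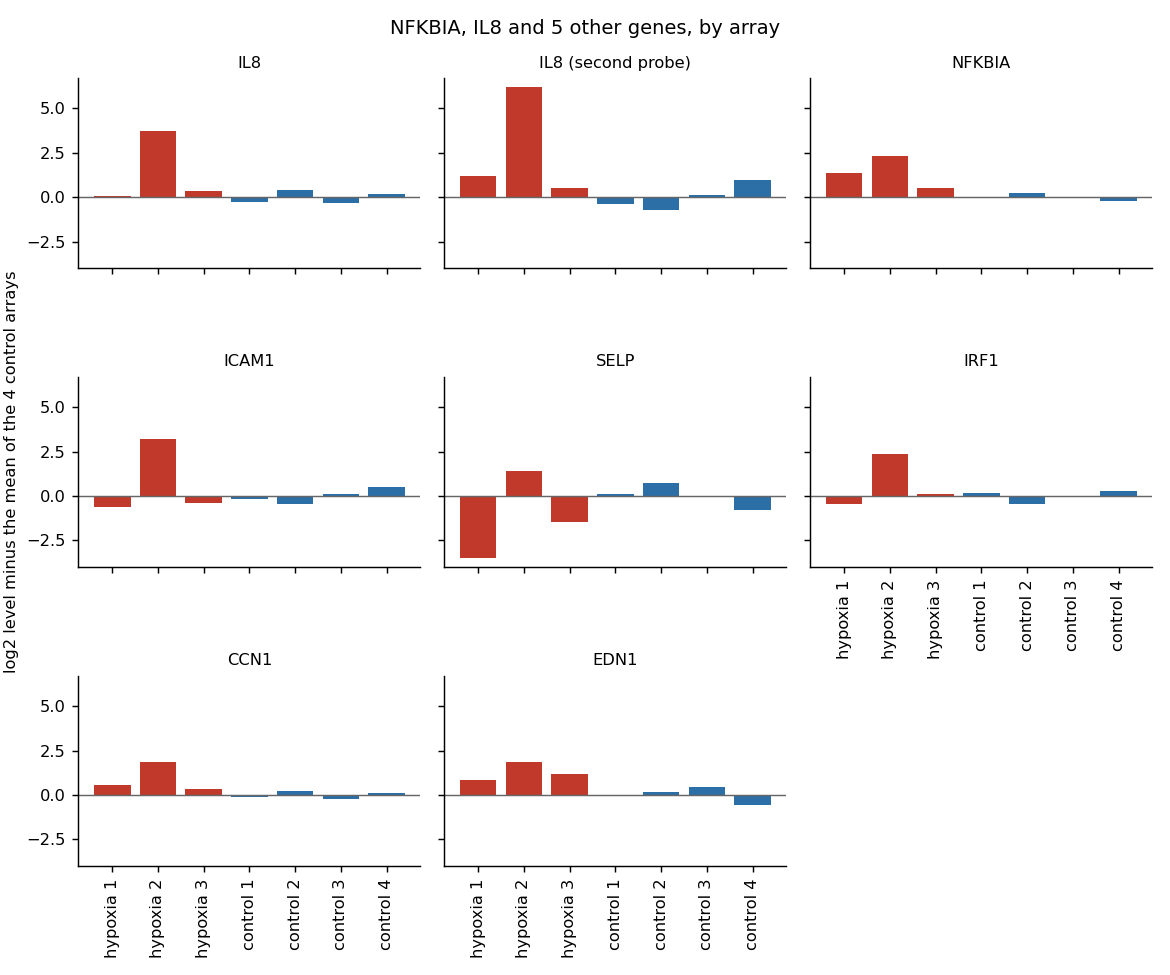
Log2 level minus the mean of the 4 control arrays (y axis) on each array (x axis) for IL8, NFKBIA and 5 other genes, with hypoxia in red and control in blue. CCN1 and EDN1 were picked for their likeness to NFKBIA over these arrays. IL8, ICAM1 and IRF1 stand far above the other arrays on hypoxia replicate 2 alone, SELP (main probe) is highest there by 0.69 and low on hypoxia replicates 1 and 3, and NFKBIA, CCN1 and EDN1 are above the control mean on all 3 hypoxia arrays.

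The named genes with the most similar levels over the arrays were found by the root mean square distance of mean-centred log2 levels over 7 arrays, among 671 genes. Genes picked this way tend to share the highest array and the order of the groups, so such sharing is no separate result. For NFKBIA they included CCN1, a matricellular protein made early after a stimulus (distance 0.32), and EDN1, the vasoconstrictor endothelin 1 (0.44). The spread of NFKBIA itself over the arrays was 0.92 (SD). EDN1 stood at log2 levels of -0.89, 0.14 and -0.50 on hypoxia replicates 1, 2 and 3, against -1.70, -1.55, -1.29 and -2.29 on control replicates 1, 2, 3 and 4. Like NFKBIA, it was above all controls in every hypoxia fetus and highest in replicate 2, with a log2 difference of 1.29 (SE 0.30; limma, adjusted p = 0.163). The difference was 0.93 for CCN1 (SE 0.35; limma, adjusted p = 0.278).

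For IL8 the most similar genes were ICAM1 (distance 0.51), IRF1 (0.60) and CCN1 (0.70), beside an SD of 1.41 for IL8 over the arrays. For IL1B they were MT3, a metallothionein of the brain (0.10), PLAUR, the urokinase receptor (0.13), and BMPR1B, a receptor for bone morphogenetic proteins (0.16), beside an SD of 0.33. MT3, PLAUR and BMPR1B, like IL1B, were highest on hypoxia replicate 1, which the choice by distance favours. For TNF they were CYP1A1, a cytochrome P450 enzyme (0.18), ISL1, a transcription factor of hypothalamic neurons (0.20), and APOA1, an apolipoprotein (0.20). All 3 were highest on control replicate 4 as TNF was, which the same choice favours. IL6 varied so little, with an SD of 0.12, that its most similar genes, SLC25A11, PRKAR1A and RPL13A, were genes that varied little too, with SDs of 0.08, 0.08 and 0.12.

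The rest of the pathway was read from lists of inhibitors, kinases and adaptors, ligands, receptors, mRNA-binding proteins and targets. Of 106 listed genes other than the 5, 24 were found by name among the probes and 20 were tested. Of these, 10 were higher and 10 lower in hypoxia, with a median log2 difference of 0.03, equal to the median of 0.03 over all tested probes. In limma 0 passed an adjusted p under 0.05, and 5 of 20 had an unadjusted p under 0.05, beside 15.7% of all tested probes. The groups did not overlap for 2 genes higher and 2 lower in hypoxia, beside 8.76% and 7.46% of all tested probes. Without hypoxia replicate 2 the median was -0.09. NF-kB subunits, the IKK kinases and inhibitors other than NFKBIA were not analysed here.

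Among the ligands, 3 further genes were measured and all 3 were higher in hypoxia. IL18, a cytokine of the IL-1 family, stood at log2 levels of -2.74, -3.01 and -3.15 on hypoxia replicates 1, 2 and 3, against -3.73, -3.16, -3.36 and -3.27 on control replicates 1, 2, 3 and 4. All hypoxia fetuses lay above all controls, replicate 3 only narrowly, and the log2 difference was 0.41 (SE 0.17; limma, adjusted p = 0.300). IL1A, which encodes IL-1α, had a log2 difference of 0.74 (SE 0.44; limma, adjusted p = 0.438), with its highest level on hypoxia replicate 2 and a difference of 0.22 without it. IL1RN, the antagonist of the IL-1 receptor, had one of 0.64 (SE 0.45; limma, adjusted p = 0.506) and was well above background on 1 of 3 hypoxia and 2 of 4 control arrays.

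The 1 receptor measured was TNFRSF1A, the main TNF receptor, at log2 levels of -4.64, -4.84 and -4.13 on hypoxia replicates 1, 2 and 3, against -3.87, -4.32, -4.17 and -3.96 on control replicates 1, 2, 3 and 4. Hypoxia replicates 1 and 2 lay below all controls and replicate 3 within them, with a log2 difference of -0.46 (SE 0.19; limma, adjusted p = 0.315). The adaptors and kinase that carry receptor signals, TRAF3, IRAK4 and MYD88, had log2 differences of -0.15, -0.11 and -0.05, each with overlapping groups and an adjusted p of 0.642, 0.756 and 0.901 in limma. ZFP36, which binds and destabilises cytokine mRNAs, had one of 0.13 (SE 0.13; limma, adjusted p = 0.659).

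Among the NF-kB targets 12 genes were measured, 6 higher and 6 lower in hypoxia, with a median log2 difference of 0.01. VCAM1, an adhesion molecule of endothelium, had the smallest p of them. It stood at log2 levels of -3.28, -3.58 and -3.66 on hypoxia replicates 1, 2 and 3, against -2.44, -2.48, -2.51 and -1.92 on control replicates 1, 2, 3 and 4. All hypoxia fetuses were below all controls, hypoxia replicate 2 included, with a log2 difference of -1.17 (SE 0.18; limma, adjusted p = 0.0957). CXCL10, a chemokine for T cells, was also below all controls in every hypoxia fetus, with a log2 difference of -1.18 (SE 0.40; limma, adjusted p = 0.250). CXCL1, a neutrophil chemokine that shares a receptor with IL8, lay above all controls in every hypoxia fetus, with a log2 difference of 0.50 (SE 0.15; limma, adjusted p = 0.209). The named targets thus lay on both sides of the controls.

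The targets also split by array. Of the 12, 4 were highest on hypoxia replicate 2 and 6 on control replicate 4, and over the 20 pathway genes the counts were 7 and 6. Hypoxia replicate 2 was the highest array for 35% of the pathway genes, beside 15.5% of all probes, and control replicate 4 for 30% of them, beside 13.1% of all probes. NFKBIA was lowest of all 7 arrays on control replicate 4, whereas TNF was highest there.

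**Figure D4:**
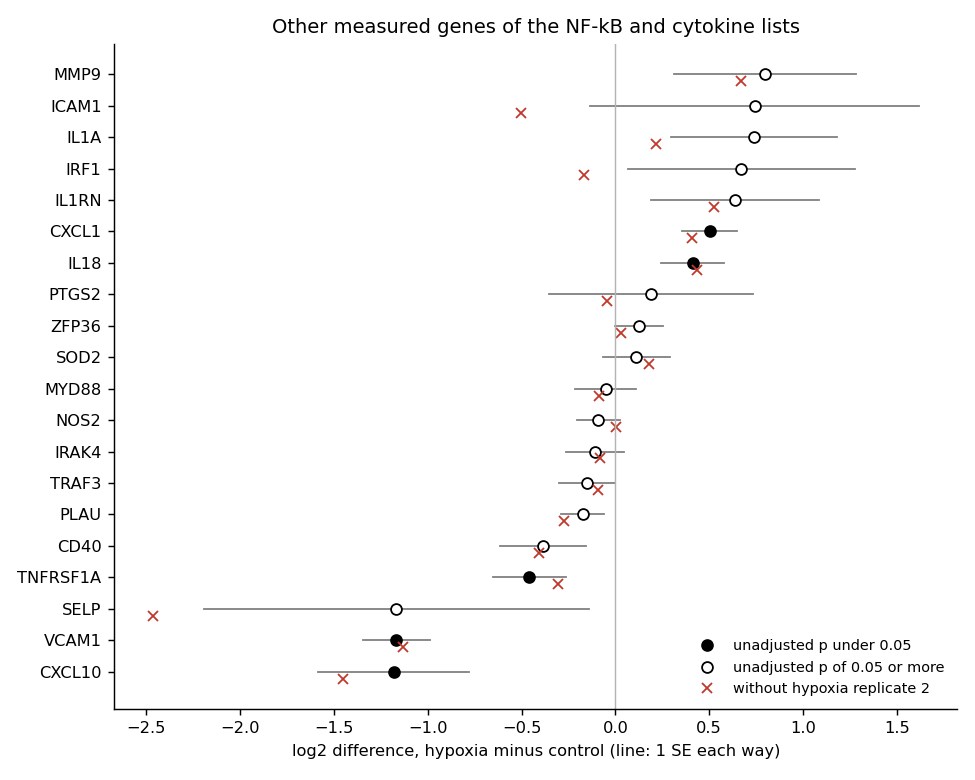
Log2 difference, hypoxia minus control (x axis, with 1 SE each way), of the 20 measured pathway genes other than the 5 (y axis). Filled points have an unadjusted p under 0.05 (5 of 20), and crosses give the difference without hypoxia replicate 2, which lies on the other side of 0 for ICAM1, IRF1, PTGS2 and NOS2.

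Glucocorticoids are known inducers of NFKBIA, so a list of glucocorticoid-responsive genes was read beside it. Of 15 listed genes, 3 were measured, NFKBIA, ZFP36 and HSD11B1. HSD11B1, the enzyme that regenerates active glucocorticoid in cells, stood at log2 levels of -0.21, -0.57 and 0.11 on hypoxia replicates 1, 2 and 3, against 0.04, -0.59, 0.49 and 0.33 on control replicates 1, 2, 3 and 4. The groups overlapped, with a log2 difference of -0.29 (SE 0.28; limma, adjusted p = 0.634). Of these 3 genes NFKBIA, for which the list was read, was the 1 whose groups did not overlap, beside 16.2% of all tested probes. A part of glucocorticoids in the NFKBIA difference was not tested.

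The tissue label was checked against markers. Of 14 hypothalamic peptide genes 10 were measured, among them SST and TAC1, which encode somatostatin and substance P, and their summed level was 2628 to 3340 in hypoxia and 2263 to 3682 in control. That sum mainly followed SST, the brightest. Within the controls the log2 range was 3.70 for OXT, 3.00 for GHRH and 2.98 for GNRH1. It was 0.89 (TAC1) to 1.37 (AGRP) for the other peptide genes. OXT and GNRH1 were lowest on control replicate 4, at -1.12 and -6.20, and GHRH was lowest on control replicate 1, at -4.19. The peptide sum therefore does not show that the dissections were alike. Of 8 astrocyte markers 6 were measured, all 6 with a difference above 0, AQP4 and GJA1 being the brightest, and their sum was 6453 to 7375 in hypoxia and 4558 to 6480 in control. Of 10 meningeal and fibroblast markers 7 were measured, all 7 with a difference below 0, PTGDS and IGFBP2 being the brightest, and their sum was 7090 to 9195 in hypoxia, below all controls at 9455 to 10357. The 4 measured T cell markers of 9 summed to 98.7 to 139 in hypoxia and 67.3 to 79.7 in control. That sum followed CD247, the brightest, with a log2 difference of 1.17, while the other 3 lay below 0, CD3E at -1.08, CD3D at -0.53 and LCK at -0.03. CD4 was not well above background on any array. The meningeal and T cell sums did not overlap between the groups, as NFKBIA did not. Their part in the NFKBIA difference was not tested. The meningeal sum followed PTGDS, whose own groups overlapped, with a log2 difference of -0.04. PTGDS peaked on control replicate 2, at a log2 level of 6.36. On that array IGFBP2, at 2.88, lay below its 2.91 on hypoxia replicate 3. The gap in the meningeal sum therefore leaned on 1 PTGDS value. For 2 of the 7 meningeal markers every hypoxia fetus lay below every control, beside 7.46% of all tested probes. The hypothalamic and astrocyte sums overlapped, the astrocyte sum only through control replicate 2, at 6480 against 6453 on hypoxia replicate 2. For 3 of the 6 astrocyte markers every hypoxia fetus lay above every control, beside 8.76% of all tested probes.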

How the data were processed

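The deposited files hold 1 scanner table per array, with spot intensity values that Agilent Feature Extraction 10.1.1.1 made, per the file headers, by subtracting a background and replacing signals not above it with a surrogate. The deposited series table gives these processed intensities as log2 values (each within 5e-09), uncentred and unscaled, with column medians of 8.69, 8.48 and 8.62 in hypoxia and 8.31, 8.34, 8.87 and 8.60 in control.

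Values here are log2 processed intensities minus each array's 75th percentile over non-control spots, with spots of 1 probe averaged and 34 outlier values left out. Testing covered the 12711 of 15008 probes that were above background by the scanner's mark on 3 or more of the 7 arrays, in limma 3.58.1 (R 4.3.3), 2-sided, with Benjamini-Hochberg adjustment over all of them at 0.05. The procedure was tested on simulated data with independent noise for each probe and no difference between slides. That simulation therefore says nothing about slide and group being shared. Groups come from the sample titles.

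Probes were named by accession, gene ID, symbol or synonym in the RefSeq table of the ARS-UI_Ramb_v3.0 assembly, or by older names in the files. In all, 1593 probes of 983 genes had a name. Where a gene had several probes, its brightest on average was the main one. All 6 probes are named, with the 3 genes of smallest p per pathway list, the 2 brightest per marker list and the 3 most similar genes per member gene, of which 1 is not reported here. The genes and lists were chosen with earlier results of these data known. The number of arrays limits the precision.

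Replicate numbers 1 to 3 occur in both groups, but nothing in the labels pairs the fetuses. Alternatives were other scalings, background corrections, filters, priors and array weights, each control slide alone, slide as a random block, a replicate block and leaving out each array.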

Additional observations from a re-analysis of the deposited data

Results flagged for a closer look

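Among 47 sets of 4 control values looked at, 2 had 1 control far from the others, where chance gives about 1 in 20, or 2.35. The sets were those of the 6 probes, the pathway genes of smallest p, the brightest markers and the most similar genes. VCAM1 had a log2 level of -1.92 on control replicate 4, while the other 3 controls lay between -2.51 and -2.44, so that this control stood farther from the hypoxia fetuses than the rest. PTGDS, a meningeal marker, had a log2 level of 6.36 on control replicate 2, while the other 3 controls lay between 5.92 and 5.99. None of the 5 genes had such a control value.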

How the results depend on the processing

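The log2 difference of NFKBIA stayed above 0 in all 21 alternatives, between 0.93 and 1.85, both reached by leaving out a hypoxia fetus, with an adjusted p of 0.151 to 0.409 including the reported fit. IL1B stayed between 0.22 and 0.49, the main IL8 probe between 0.22 and 2.04 and the second IL8 probe between 0.85 and 3.70. In all 21 alternatives 0 of the 6 probes passed the adjusted threshold. IL6 crossed 0, with -0.00711 under median scaling, -0.0814 under quantile normalization and -0.0712 to 0.116 with 1 array left out, where the lowest was without hypoxia replicate 1. TNF was 0.12 against control replicates 1 and 2 alone. The median of the 20 pathway genes was below 0 in 9 of 22 alternatives and ranged from -0.0851 (without hypoxia replicate 2) to 0.0506 with 1 array left out, and the cause was not tested.

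The 5 pathway genes at an unadjusted p under 0.05 became 2 to 6, and the 2 probes past the adjusted threshold over the whole array became 0 to 232, the most against control replicates 1 and 2 alone. With 1 array left out this whole-array count was 0 to 6. With a replicate block over replicates 1 to 3, NFKBIA had a log2 difference of 1.34 (limma, adjusted p = 0.229), and 0 probes of the array passed. Deviations of same-numbered fetuses correlated at 0.121, 0.0876 and 0.107, each the highest for its hypoxia fetus, which is a hint from the data and not from the design. The second IL8 probe rested on 3 arrays with signal well above background.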
